A study of Mus musculus with 6 samples.

Results

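The receptors for monoamines, acetylcholine, neuropeptides and the modulators that act beside them (histamine, adenosine and endocannabinoids) were examined in hippocampal RNA from 6 mice, 3 of them WT (Ube3a m+/p+) and the other 3 Ube3a m-/p+. The 56 receptor genes were taken by symbol from a written list, with no measured value in the rule, and all 56 were found among the 25239 genes counted in each library. The list holds 5 dopamine, 10 serotonin, 7 adrenergic, 5 muscarinic, 3 histamine and 19 neuropeptide receptor genes, 5 nicotinic subunit genes, and the genes of the adenosine A1 and CB1 cannabinoid receptors.

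All 6 mice were males on the C57BL/6 background, aged 6 to 8 weeks, with 1 RNA-seq library from total RNA of the hippocampus per mouse and no treatment named in the sources used here. Mice of the Ube3a m-/p+ genotype model Angelman syndrome. They lack a functional maternal copy of Ube3a, an E3 ubiquitin ligase gene, and keep the paternal copy, which is known to be silenced in most neurons. The maternal copy is lost in every cell of the animal from the germline on, so that effects in the hippocampus and effects of other tissues or of development are not separated by the design. WT littermate status is not given in the sources used here.

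Most of these receptors are G protein-coupled. Gs-coupled receptors raise cAMP through adenylyl cyclase, Gi-coupled receptors lower it and open inwardly rectifying potassium channels through Gβγ, and Gq-coupled receptors activate phospholipase C. The nicotinic receptors are ion channels opened by acetylcholine. In the hippocampus the monoamines and much of the acetylcholine arrive along axons whose cell bodies lie elsewhere, while most neuropeptides and the endocannabinoids are made by local interneurons and pyramidal cells. The receptors read out arousal, novelty and stress, and several of them set the release of glutamate and GABA.

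The RefSeq promoter windows show where these genes begin, and they are printed because the study asked about retinoic acid signalling, whose receptors bind pairs of the hexamer AGGTCA. A window runs from 250 bases before to 50 bases after an annotated start, and 48 of the 56 genes had 1 or more, 65 windows in all. The windows of 3 of the genes that stood lower in every Ube3a m-/p+ mouse than in any WT mouse, and have a single window each, are shown first, with only the bases upstream of both the RefSeq and the GENCODE start. They are chr13:105443443-105443638 (plus strand) for Htr1a, chr14:74640624-74640839 (plus strand) for Htr2a and chr3:82548086-82548335 (minus strand) for Npy2r, on GRCm38. For Adra2c, the 1 receptor gene past the adjusted threshold, only the hexamer with 12 bases on each side is shown, from chr5:35278503-35278532 (plus strand). Capitals mark the hexamer, which was searched on both strands, and all 4 sequences are written 5′ to 3′ on the strand of the gene.
Htr1a: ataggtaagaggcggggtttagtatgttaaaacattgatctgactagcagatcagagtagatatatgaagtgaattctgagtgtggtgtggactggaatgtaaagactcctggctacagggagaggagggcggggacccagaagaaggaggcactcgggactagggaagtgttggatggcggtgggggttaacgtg
Htr2a: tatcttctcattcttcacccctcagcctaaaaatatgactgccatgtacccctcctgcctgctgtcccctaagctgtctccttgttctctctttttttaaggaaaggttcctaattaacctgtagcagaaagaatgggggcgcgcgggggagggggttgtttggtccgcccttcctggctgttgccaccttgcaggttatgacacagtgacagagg
Npy2r: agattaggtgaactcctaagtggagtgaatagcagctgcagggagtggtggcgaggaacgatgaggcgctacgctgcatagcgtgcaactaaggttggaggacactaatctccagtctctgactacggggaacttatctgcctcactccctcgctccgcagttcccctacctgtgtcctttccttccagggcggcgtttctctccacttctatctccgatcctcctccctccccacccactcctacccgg
Adra2c: gctgcatggggcAGGTCAgttttgagtttg
The windows of Htr1a, Htr2a and Npy2r held no AGGTCA, and that of Adra2c held 1, beginning 51 bases before the RefSeq start. GENCODE places the start of Adra2c close to the upstream end of that window, so the hexamer lies downstream of the GENCODE start. The hexamer was in 10 of the 65 receptor windows (15.4%) and in 5340 of all 32851 windows (16.3%). The 9 receptor genes with it were Htr2c, Htr6, Adra2c, Chrm5, Chrna5, Chrnb2, Cnr1, Hrh1 and Oxtr. Of these, Cnr1 also stood lower in every Ube3a m-/p+ mouse than in any WT mouse. The direct repeat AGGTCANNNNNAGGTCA was in 0 receptor windows and in 3 windows overall (0.00913%), and the cAMP response element TGACGTCA was in 1 receptor window (1.54%), of Sstr2, and in 588 overall (1.79%). These are counts of letters in short windows and mark no bound site.

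Library depth was 7293272 to 8675252 counts on genes in WT mice and 8871052 to 11314409 in Ube3a m-/p+ mice, and values are given as CPM, the counts of a gene scaled to the total on all genes of its library. Ube3a itself was checked first. It stood at 104, 141 and 151 CPM in WT mice 1, 2 and 3 and at 96.8, 82.9 and 80.6 CPM in Ube3a m-/p+ mice 1, 2 and 3. Every mutant lay below every WT mouse (log2 fold change -0.58, SE 0.12, adjusted p = 0.0363 by edgeR's quasi-likelihood test). Counting Ube3a cannot separate the alleles, and Snhg14 overlaps it on the opposite strand with the strand setting of the counting not given in the sources used here. All 10 markers of hippocampal pyramidal cells and all 8 of dentate granule cells were detected in every library. The libraries differed by base composition: the deviation of a gene from its mean over the 6 libraries ran with the GC content of its transcript at a Spearman rho across genes of 0.0455, -0.506 and -0.571 in WT mice 1, 2 and 3 and of 0.0588, 0.526 and 0.528 in the mutant mice of those numbers. The 2 mice numbered 1 were alike in this, and the others differed by genotype. GC content and genotype therefore cannot be told apart in most of these libraries, and a fit that corrects for GC content and transcript length (the GC-corrected fit) is given beside the uncorrected one for the genes with an unadjusted p below 0.05 and for some of the others. With that correction the Ube3a log2 fold change was -0.20 (SE 0.08, adjusted p = 0.238), and without correction but with any one of WT mouse 2, WT mouse 3, Ube3a m-/p+ mouse 2 or Ube3a m-/p+ mouse 3 left out its adjusted p was 0.142 to 0.251.

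Of the 56 receptor genes, 47 were detected, taken as at least 0.5 CPM in each of the 6 libraries, a limit that 57.4% of all genes listed passed. The same 47 passed edgeR's filter on low counts and were tested. The 9 others had too few reads to be tested. Drd3, encoding a D2-like dopamine receptor, had 1 count over all 6 libraries and 0 in 5 of them, where a count of 0 allows up to 3 counts, or 0.265 to 0.411 CPM depending on the library. Drd4 had 10 counts in all, Htr1d 7, Adra2b 17, of which 11 came from Ube3a m-/p+ mouse 3, and Galr1, the galanin receptor gene, 9. The µ and κ opioid receptor genes Oprm1 and Oprk1 had 49 and 27 counts, the neurokinin receptor gene Tacr3 had 35 and the VIP receptor gene Vipr2 had 43. In whole tissue, fewer cells of a type and less RNA per cell cannot be told apart, here and in all that follows.

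Levels were compared between genes per kb of the longest annotated transcript (CPM per kb). They covered a range from 0.011 for Drd3 to 68.6 for Adora1 as means of the 6 libraries. Adora1, encoding the A1 adenosine receptor that damps transmitter release, led with 67.0 ± 3.63 CPM per kb in WT and 70.1 ± 4.49 in Ube3a m-/p+ mice (SD, n = 3). The α1D-adrenergic receptor gene Adra1d and the M1 muscarinic receptor gene Chrm1 followed with 42.7 ± 5.18 and 43.0 ± 4.42 CPM per kb in WT mice, which lay within each other's spread. Cnr1, encoding the CB1 receptor on the terminals of CCK interneurons and of excitatory cells, came next with 31.8 ± 2.41 CPM per kb. Npy2r and Sstr4 overlapped over the 6 libraries, at 16.0 to 25.3 and 16.4 to 20.5 CPM per kb, and Chrm3 lay below both but for the lowest Npy2r value, at 13.3 to 16.2. Hrh3, Oprl1 and Npy1r closed the 10 highest, ranked on the mean of the 6 libraries, with 12.5, 11.4 and 11.0 CPM per kb. In the Ube3a m-/p+ mice alone Npy1r, at 9.02 CPM per kb, lay below Chrm4, Chrnb2 and Adra2c, at 11.2, 10.2 and 9.71. Of these 10 genes, 7 encode Gi-coupled receptors and 3 (Adra1d, Chrm1 and Chrm3) Gq-coupled ones. The ranking depends on the length used. Per kb of all annotated exons of a gene together, Chrm4 (10.2) stood above Npy1r (9.53) and Oprl1 (9.43) and replaced Oprl1 among the 10 highest. On that measure Hrh3 (10.7) stood above Chrm3 (10.3).

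**Figure D1:**
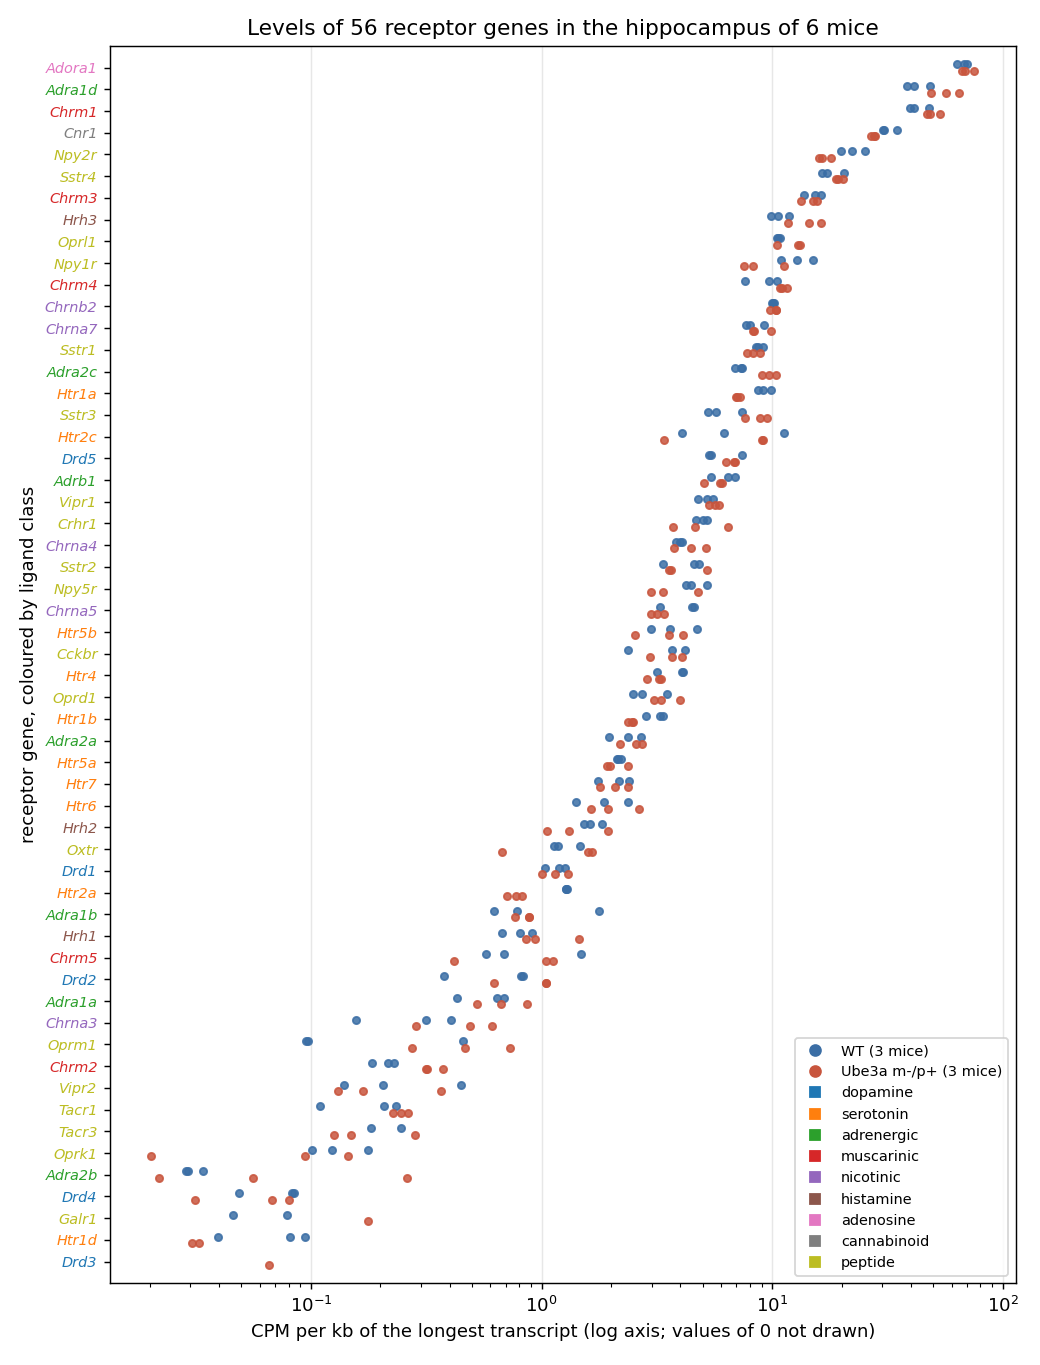
Level of each of the 56 receptor genes in each of the 6 mice, in CPM per kb of the longest transcript on a log axis, with WT mice in blue, Ube3a m-/p+ mice in red and gene names coloured by ligand class. The means run from 0.011 for Drd3 to 68.6 for Adora1, and for most genes the points of the 2 genotypes mix.

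Of the 47 receptor genes tested, 1 (2.13%) passed an adjusted p of 0.05 with a change of more than 1.2-fold, here called differentially expressed, against 290 of all 14445 genes tested (2.01%, of which 1.02% higher and 0.99% lower). This was Adra2c, encoding the α2C-adrenergic receptor, a Gi-coupled receptor for noradrenaline. At an unadjusted p below 0.05 there were 11 receptor genes (23.4%), 5 higher and 6 lower in Ube3a m-/p+ mice, against 24.6% of all genes tested (12.2% higher and 12.4% lower). The 3 mice of one genotype lay wholly above the 3 of the other for 10 receptor genes (21.3%), 5 in each direction, against 25% of all genes tested (10.8% higher and 14.2% lower). The receptor genes as a group were near the background on these 3 counts. Their median log2 fold change was 0.0839 and that of all genes 0.0025, with 29 fitted higher and 18 lower (61.7% higher, against 50.3% of all genes). With the GC-corrected fit edgeR called 0 receptor genes and 0.648% of all genes, 9 receptor genes (19.1%) had an unadjusted p below 0.05, 3 higher and 6 lower, against 14.2% of all genes (6.81% higher and 7.37% lower), and the median was -0.0131. Without that correction DESeq2 called 5 of 56 receptor genes, against 961 of all 19291 genes to which it gave a p-value. The call count also rested on single libraries. It was 8 of 49 without WT mouse 1, against 2582 of all 14646 genes tested. Without Ube3a m-/p+ mouse 1 it was 7 of 47, against 1816 of 14536. These were the mice alike in GC dependence. Without any one of WT mouse 2, WT mouse 3, Ube3a m-/p+ mouse 2 or Ube3a m-/p+ mouse 3 the count was 0. Of all genes, 0, 0, 0 and 2 were then called. An unadjusted p below 0.05 was reached by 9 of 49, 11 of 48, 9 of 48 and 9 of 48 receptor genes. For all genes this was 2075 of 14627, 2159 of 14635, 2128 of 14540 and 2429 of 14568. With 3 mice against 3, the exact two-sided permutation test of a single gene cannot go below 0.1, which each of the 10 genes without overlap reached.

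**Figure D2:**
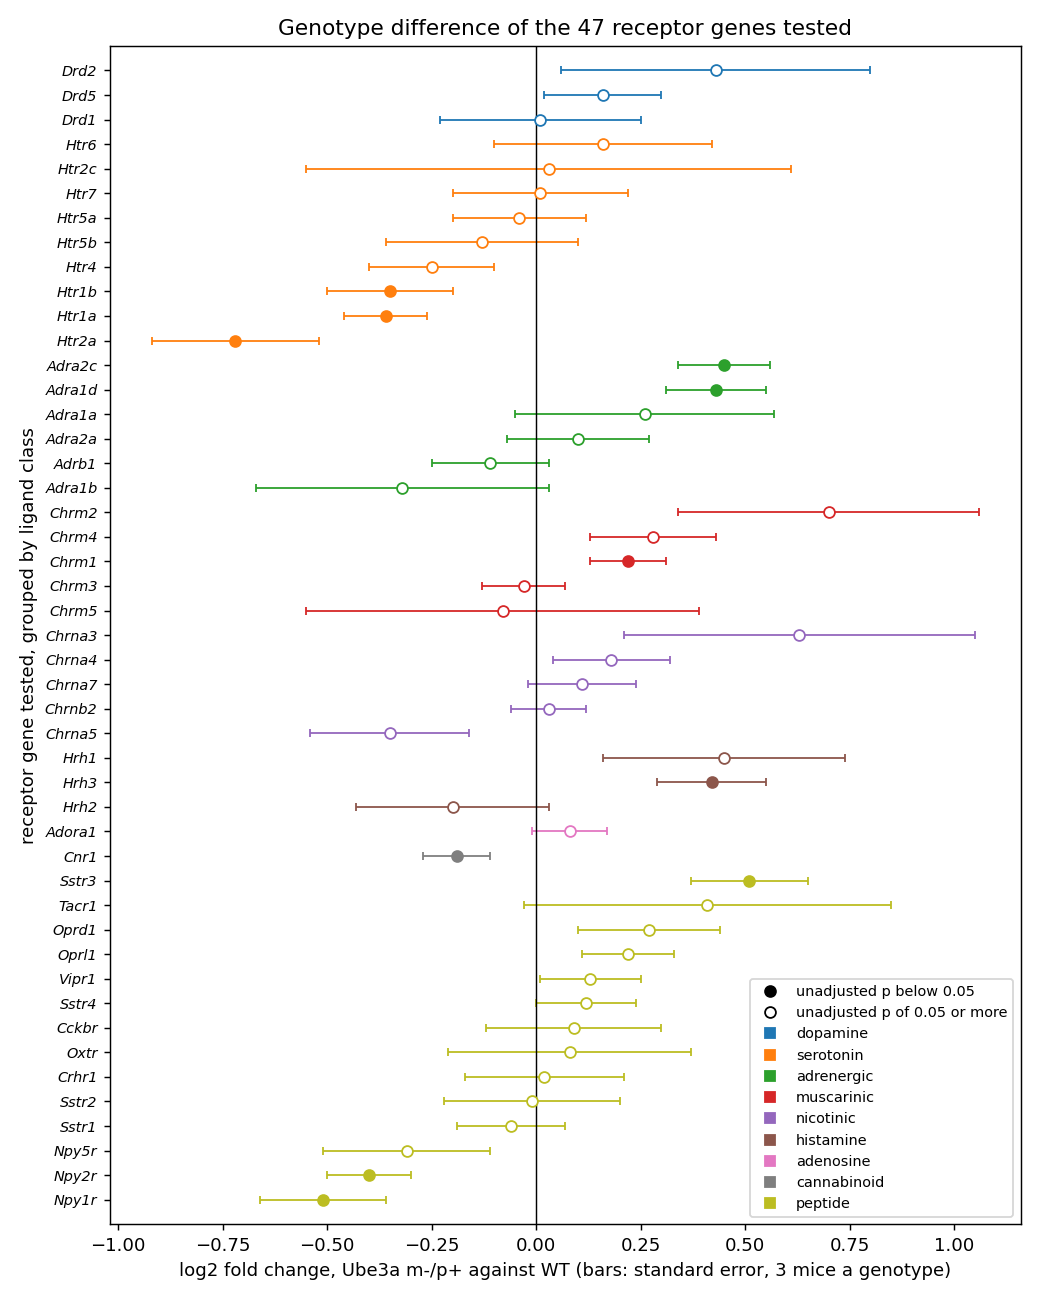
Log2 fold change of Ube3a m-/p+ against WT mice for the 47 receptor genes tested, with the standard error as bars, grouped and coloured by ligand class. Filled points have an unadjusted p below 0.05, and they range from -0.72 for Htr2a to 0.51 for Sstr3.

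Of the 9 serotonin receptor genes tested, 6 were fitted lower and 3 higher (33.3% higher, against 50.3% of all genes) with a median log2 fold change of -0.13. An unadjusted p below 0.05 was reached by 3 of them (33.3%, against 24.6% of all genes), all lower. The class was not tested against other genes. With all 6 mice none passed the adjusted threshold in edgeR. In the GC-corrected fit 2 (22.2%) kept an unadjusted p below 0.05, against 14.2% of all genes. Without WT mouse 1 the adjusted p of Htr1a and Htr2a in edgeR was 0.0292 and 0.0436, and without Ube3a m-/p+ mouse 1 that of Htr2a was 0.0459. DESeq2 gave no adjusted p for Htr2a and Htr1b. Htr1a, the Gi-coupled 5-HT1A receptor gene of pyramidal and granule cells, stood at 40.8, 44.5 and 39.1 CPM in WT mice 1, 2 and 3 and at 31.1, 32.5 and 31.7 CPM in Ube3a m-/p+ mice 1, 2 and 3. The mutants lay close together and below all WT mice, with 41.4 ± 2.77 against 31.8 ± 0.707 CPM (SD, n = 3). The log2 fold change of Htr1a was -0.36 (SE 0.10, adjusted p = 0.0632 in edgeR), and it was nearly the same size in the GC-corrected fit, at -0.35 (SE 0.10, adjusted p = 0.0769). Between the 2 mice numbered 1 the log2 ratio was -0.39.

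Htr2a, the Gq-coupled 5-HT2A receptor gene, had the most negative fold change of the 47. It held 7.19, 7.26 and 7.13 CPM in WT and 4.62, 4.33 and 3.99 CPM in Ube3a m-/p+ mice, from 52 to 63 counts and from 41 to 49 counts per library. The WT values were almost equal and the mutant values well below them (log2 fold change -0.72, SE 0.20, adjusted p = 0.0632). With the GC correction the log2 fold change was -0.48 (SE 0.21, adjusted p = 0.298), and the ratio of the mice numbered 1 was -0.64 on the log2 scale. Htr2a has the lowest transcript GC content of the 47 genes, 41.3%. Htr1b, a Gi-coupled autoreceptor and heteroreceptor on axon terminals, held 13.4, 15.4 and 15.9 CPM in WT and 11.2, 11.8 and 11.7 CPM in Ube3a m-/p+ mice, again without overlap. Its log2 fold change was -0.35 (SE 0.15, adjusted p = 0.155), and -0.22 (SE 0.15, adjusted p = 0.526) with the GC correction, and the antisense gene D430036J16Rik shares 852 bp of exon with it.

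Htr2c, the Gq-coupled 5-HT2C receptor gene, varied widely between mice of the same genotype. It stood at 19.9, 30.3 and 54.7 CPM in WT mice 1, 2 and 3 and at 44.3, 44.4 and 16.6 CPM in Ube3a m-/p+ mice 1, 2 and 3. The ranges of the genotypes overlapped almost wholly, with means of 35.0 ± 17.9 and 35.1 ± 16.0 CPM and a log2 fold change of 0.03 (SE 0.58, adjusted p = 0.98), or 0.25 with the GC correction. The choroid plexus, the tissue that makes cerebrospinal fluid beside the hippocampus, is known for a very high level of this receptor. The summed level of 10 choroid plexus markers, all measured above 0 in every library, was 619, 106 and 2219 CPM in WT mice and 2308, 1646 and 112 CPM in Ube3a m-/p+ mice. The 3 libraries with the highest marker sums were the 3 with the most Htr2c, but WT mouse 2, with the lowest sum, held more Htr2c than WT mouse 1. The part of choroid plexus RNA in the Htr2c values was not tested. The 10 markers were all fitted higher in Ube3a m-/p+ mice and none had an unadjusted p below 0.05, the adjusted p in edgeR being 0.631 or more.

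**Figure D3:**
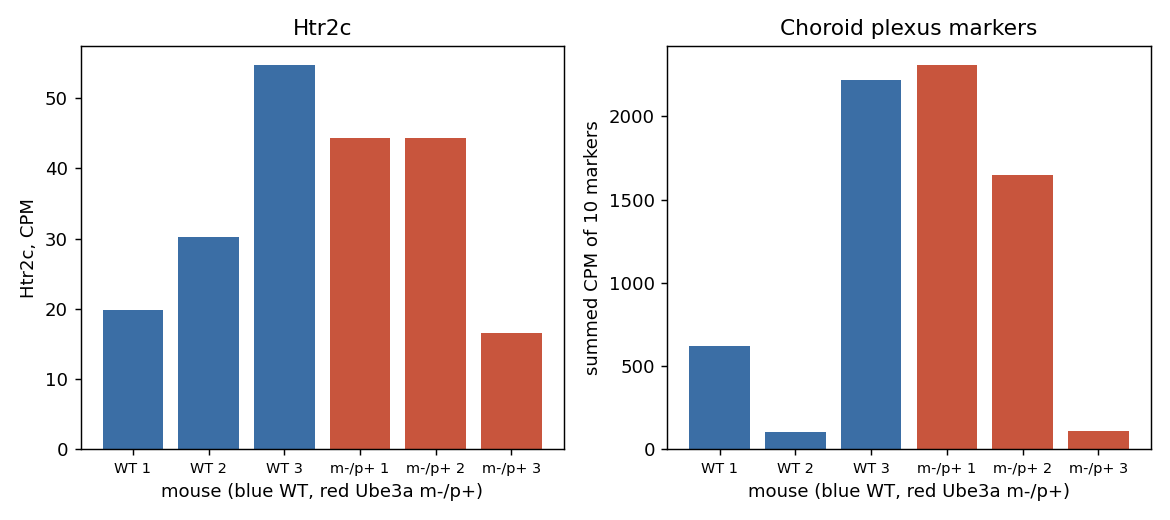
Htr2c in CPM (left) and the summed CPM of 10 choroid plexus markers (right) in each of the 6 mice, with WT in blue and Ube3a m-/p+ in red. WT mouse 3 and Ube3a m-/p+ mice 1 and 2 are the 3 highest on both sides, with 44.3 to 54.7 CPM of Htr2c and marker sums of 1646 to 2308 CPM.

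None of the other serotonin receptor genes had an unadjusted p below 0.05. The Gs-coupled Htr4 held 14.7 to 19.1 CPM in WT and 13.4 to 15.3 CPM in mutant mice (log2 fold change -0.25, SE 0.15, adjusted p = 0.293, or -0.12 with the GC correction), and the Gs-coupled Htr6 and Htr7 had fold changes of 0.16 and 0.01. Htr5a and Htr5b, which encode Gi-coupled receptors, had -0.04 and -0.13. The signs of Htr5a and Htr6 turned with the GC correction, to 0.09 and -0.16.

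Of the adrenergic genes, which answer noradrenaline from the locus coeruleus, 6 were tested and 2 (33.3%) had an unadjusted p below 0.05, both higher, against 24.6% of all genes (12.2% higher). Adra2c held 25.2, 23.7 and 25.4 CPM in WT mice 1, 2 and 3 and 31.2, 35.9 and 33.3 CPM in Ube3a m-/p+ mice 1, 2 and 3. The genotypes did not overlap and the WT mice lay close together, with means of 24.8 ± 0.893 and 33.5 ± 2.33 CPM (SD, n = 3). Its log2 fold change of 0.45 (SE 0.11) had an adjusted p of 0.0482 in edgeR, just under the threshold. With the GC correction the difference was 0.11 (SE 0.11, adjusted p = 0.723), and the log2 ratio of the mice numbered 1 was 0.31. Over the 15 alternatives the log2 fold change of Adra2c kept its sign, between 0.11 and 0.51, with an adjusted p from 0.0142 to 0.808. It lost the threshold in 8, among them those that left out WT mouse 2, WT mouse 3, Ube3a m-/p+ mouse 2 or Ube3a m-/p+ mouse 3. Its transcript has the highest GC content of the 47 genes, 65.5%.

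Adra1d, a Gq-coupled receptor gene and the second in level per kb by the mean of the 6 libraries, held 92.1, 78.3 and 73.1 CPM in WT and 92.5, 108 and 122 CPM in mutant mice. The 2 mice numbered 1 were almost equal, and the groups did not overlap by a narrow margin between these 2 mice. The log2 fold change of Adra1d was 0.43 (SE 0.12, adjusted p = 0.0584) and fell to 0.04 (SE 0.08, adjusted p = 0.857) with the GC correction, its transcript GC content being 65.4%. The other adrenergic genes overlapped between the genotypes. Adra1a and Adra1b, both Gq-coupled, had log2 fold changes of 0.26 and -0.32 (0.25 and -0.43 with the GC correction), and the Gi-coupled Adra2a had 0.10. Adrb1, the Gs-coupled β1 receptor gene, held 16.1, 18.9 and 20.3 CPM in WT and 14.9, 17.9 and 17.6 CPM in mutant mice, a log2 fold change of -0.11 that became -0.34 with the GC correction (adjusted p = 0.248).

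Of the dopamine receptor genes, Drd5 had the highest level. Drd5, the Gs-coupled D5 receptor gene, held 16.8 to 23.3 CPM in WT and 19.9 to 21.8 CPM in Ube3a m-/p+ mice (log2 fold change 0.16, SE 0.14), and the antisense gene Gm26560 shares 1531 bp of exon with it. It stood at 6.38 CPM per kb over the 6 libraries, against 1.16 for the Gs-coupled Drd1 and 0.788 for the Gi-coupled Drd2. Drd1 was measured at 4.24, 4.50 and 3.70 CPM in WT and 3.61, 4.68 and 4.09 CPM in mutant mice, overlapping, with a log2 fold change of 0.01 (SE 0.24, adjusted p = 0.979, or 0.11 with the GC correction). Drd2 held 2.12, 2.07 and 0.960 CPM in WT and 1.58, 2.65 and 2.66 CPM in mutant mice, also overlapping (log2 fold change 0.43, SE 0.37, adjusted p = 0.501, or 0.28 with the GC correction). Drd1 and Drd2 are known for their high level in striatal neurons. The summed level of 6 other striatal markers was 83.0 to 106 CPM in WT and 105 to 118 CPM in mutant mice. Of the 5 tested, Ppp1r1b was differentially expressed (log2 fold change 0.47, adjusted p = 0.0486, or 0.18 and 0.393 with the GC correction). Counting it, 2 were higher and 1 (Tac1) lower at an unadjusted p below 0.05, and whether striatal tissue took part in the Drd1 and Drd2 values was not tested. The defining gene Adora2a stood at 1.23 to 2.76 CPM over all libraries.

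Acetylcholine acts on 5 muscarinic receptors and on the nicotinic channels. Chrm1, the Gq-coupled M1 receptor gene of principal neurons, held 301, 259 and 249 CPM in WT and 295, 302 and 336 CPM in Ube3a m-/p+ mice. The WT mouse numbered 1 lay among the mutants, and the log2 fold change was 0.22 (SE 0.09, adjusted p = 0.154), or 0.18 (SE 0.08, adjusted p = 0.303) with the GC correction. Chrm3, also Gq-coupled, overlapped between the genotypes, with 66.2, 70.3 and 59.8 CPM in WT and 67.6, 57.6 and 65.0 CPM in mutant mice (log2 fold change -0.03, SE 0.10). The Gi-coupled Chrm2, an autoreceptor gene, was read by few counts, 9 to 11 per library in WT and 16 to 24 in mutant mice. Its values of 1.30, 1.04 and 1.23 CPM against 1.80, 2.12 and 1.81 CPM did not overlap, and its log2 fold change of 0.70 (SE 0.36, adjusted p = 0.239) was the largest increase fitted among the 47. The GC-corrected value was 0.94 (SE 0.39, adjusted p = 0.253), and the transcript of Chrm2 has a low GC content, 41.6%. Chrm4, Gi-coupled, did not overlap either, with 11.0 to 15.1 CPM in WT and 15.6 to 16.7 CPM in mutant mice, and its log2 fold change of 0.28 became 0.03 with the correction. Chrm5 held 0.665 to 2.36 CPM and overlapped.

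None of the 5 nicotinic subunit genes had an unadjusted p below 0.05 in edgeR, and none did in the GC-corrected fit. Chrnb2 and Chrna4, whose products form the main high-affinity receptor of the brain, had log2 fold changes of 0.03 (SE 0.09) and 0.18 (SE 0.14). Chrnb2 was even across the mice, at 63.9 to 65.4 CPM in WT and 62.8 to 66.3 CPM in Ube3a m-/p+ mice, but Adar shares 1365 bp of exon with it on the opposite strand. Chrna7, the α7 subunit gene of interneurons, held 21.7 to 25.9 and 23.3 to 27.8 CPM (log2 fold change 0.11, SE 0.13). Chrna5 and Chrna3 are neighbours on chromosome 9 (54980880 to 55007779 and 55010111 to 55026562, GRCm38) and were fitted in opposite directions, at -0.35 (SE 0.19) and 0.63 (SE 0.42), neither past the test.

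Neuropeptide receptor genes made up 14 of the 47 tested, and 3 of them (21.4%) had an unadjusted p below 0.05, against 24.6% of all genes. The median log2 fold change of the class was 0.09. The neuropeptide Y receptor genes, which are Gi-coupled, were all fitted lower. Npy2r held 66.6, 74.9 and 85.1 CPM in WT mice 1, 2 and 3 and 60.4, 53.8 and 55.3 CPM in Ube3a m-/p+ mice 1, 2 and 3. The groups did not overlap, with 75.5 ± 9.31 against 56.5 ± 3.46 CPM (SD, n = 3). The log2 fold change of Npy2r was -0.40 (SE 0.10) with an adjusted p of 0.0513 in edgeR, the closest to the threshold of those that missed it, and it was past it in 6 of 15 alternatives. Corrected for GC content it was -0.21 (SE 0.08, adjusted p = 0.204), and between the mice numbered 1 it was -0.14.

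Npy1r, the Y1 receptor gene, held 32.9, 45.0 and 38.4 CPM in WT and 33.8, 24.7 and 22.7 CPM in mutant mice. Here the mice numbered 1 were nearly equal and made the groups overlap, with a log2 fold change of -0.51 (SE 0.15, adjusted p = 0.0697) that was -0.35 (SE 0.12, adjusted p = 0.16) with the correction. Without Ube3a m-/p+ mouse 1 it reached -0.68. Npy5r, which lies beside Npy1r on chromosome 8 (66679965 to 66688128, against 66697192 to 66706792 on GRCm38), had a log2 fold change of -0.31 (SE 0.20, adjusted p = 0.344). The 3 transcripts have GC contents of 41.4% to 43.3%.

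The somatostatin receptor genes, also Gi-coupled, differed among themselves. Sstr3, whose product sits in the primary cilium of neurons, held 31.7, 24.4 and 22.6 CPM in WT and 32.7, 40.5 and 38.0 CPM in Ube3a m-/p+ mice. The groups did not overlap, though the mice numbered 1 lay close together, and the means were 26.2 ± 4.79 and 37.1 ± 3.98 CPM (SD, n = 3). The log2 fold change of Sstr3 was 0.51 (SE 0.14, adjusted p = 0.0541) and 0.35 (SE 0.11, adjusted p = 0.113) with the GC correction, but 0.05 between the mice numbered 1. Sstr4 held 29.2, 23.4 and 24.7 CPM against 27.6, 26.8 and 28.8 CPM, a log2 fold change of 0.12 (SE 0.12) that turned to -0.19 (SE 0.11) with the correction. Sstr1 and Sstr2 had -0.06 (SE 0.13) and -0.01 (SE 0.21), and the GC-corrected value of Sstr1 was -0.31 (SE 0.13, adjusted p = 0.266).

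The opioid-like receptor gene Oprl1, which answers nociceptin, held 33.0, 33.5 and 32.4 CPM in WT and 32.5, 40.0 and 40.9 CPM in mutant mice. Mutant mouse 1 lay with the WT mice and the other two above them, with a log2 fold change of 0.22 (SE 0.11, adjusted p = 0.249) and 0.19 (SE 0.10) with the correction. The δ opioid receptor gene Oprd1 had 0.27 (SE 0.17), or 0.14 with the correction, and the Gq-coupled neurokinin receptor gene Tacr1, at about 1 CPM, had 0.41 (SE 0.44). The cholecystokinin receptor gene Cckbr had 0.09 (SE 0.21), the oxytocin receptor gene Oxtr 0.08 (SE 0.29), the stress-peptide receptor gene Crhr1 0.02 (SE 0.19) and the VIP receptor gene Vipr1 0.13 (SE 0.12). Of these 7 genes none had an unadjusted p below 0.05 in edgeR.

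Cnr1 held 177, 176 and 201 CPM in WT and 161, 162 and 155 CPM in Ube3a m-/p+ mice, without overlap. Its log2 fold change was small, -0.19 (SE 0.08, adjusted p = 0.171), and became -0.04 (SE 0.07, adjusted p = 0.871) with the GC correction. Hrh3, the gene of the presynaptic Gi-coupled H3 receptor, held 28.6, 31.9 and 26.7 CPM in WT and 31.8, 44.1 and 39.0 CPM in mutant mice, so that mutant mouse 1 touched the WT range. The log2 fold change of Hrh3 was 0.42 (SE 0.13, adjusted p = 0.0753) and 0.12 (SE 0.11, adjusted p = 0.677) with the correction, with a GC content of 62.2%. Hrh1 and Hrh2, Gq- and Gs-coupled, had 0.45 (SE 0.29) and -0.20 (SE 0.23). Adora1 held 349, 336 and 313 CPM in WT and 332, 339 and 374 CPM in mutant mice, overlapping, with a log2 fold change of 0.08 (SE 0.09, adjusted p = 0.579) and -0.01 (SE 0.07) with the correction, and Mybph shares 1162 bp of exon with it on the opposite strand.

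**Figure D4:**
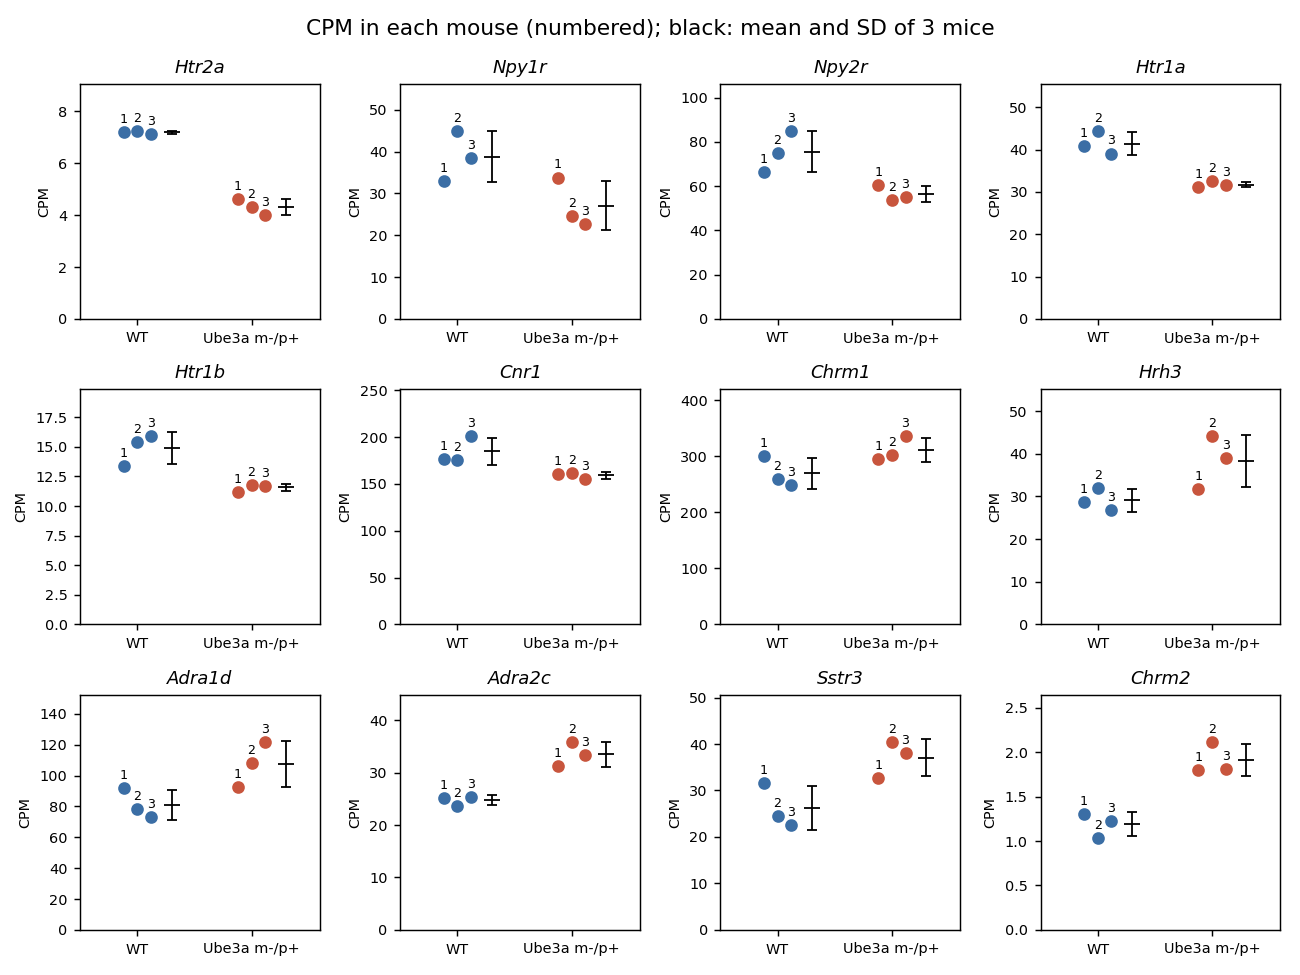
CPM in each mouse for the 11 receptor genes with an unadjusted p below 0.05 and for Chrm2, with mice numbered as in the labels and the mean and SD of 3 mice in black, each axis starting at 0. In Adra1d, Chrm1, Npy1r and Sstr3 the 2 mice numbered 1 lie side by side, while in Htr1a and Htr2a all 3 mutants sit below all 3 WT mice.

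Grouped by the G protein they use, the Gi-coupled receptor genes held 8 of the 11 with an unadjusted p below 0.05, out of 21 tested (38.1%, against 24.6% of all genes), 3 higher and 5 lower. There were 3 among 12 Gq-coupled (25%), 0 among 9 Gs-coupled and 0 among 5 channel genes in edgeR. The genotypes did not overlap for 8 of the 21 Gi-coupled genes (38.1%) and 2 of the 12 Gq-coupled ones (16.7%), against 25% of all genes. None of the 14 Gs-coupled and channel genes lacked overlap. After the correction the counts at an unadjusted p below 0.05 were 6 of 21 (28.6%), 2 of 12 (16.7%), 1 of 9 (11.1%) and 0 of 5, against 14.2% of all genes. No difference between these groups, or between a group and all genes, was tested.

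Transcript GC content split the receptor genes that differed by direction. The 5 higher ones had 53.0% to 65.5% and the 6 lower ones 41.3% to 49.1%, with no overlap, and the 36 others ran from 41.4% to 63.1%. Across the 47 receptor genes the Spearman rho of the log2 fold change with GC content was 0.445, and across all 14201 genes with an annotated transcript it was 0.622. These points share their libraries and are a description only. With the correction rho was -0.0227 over the receptor genes. In the log2 ratio of the mice numbered 1, which differ little in GC dependence, it was 0.0798. All 11 genes kept their direction with the correction and all 11 became smaller in size. Between the mice numbered 1, 9 of the 11 had the same direction as in the fit. For 8 of them this was fixed in advance, because their genotypes did not overlap. Of the others, Hrh3 had the same direction (log2 ratio 0.15), and Chrm1 (-0.03) and Npy1r (0.04) had the opposite one. Of the 11, 6 (Htr1a, Htr2a, Chrm1, Npy1r, Npy2r and Sstr3) kept an unadjusted p below 0.05, and Adrb1, Chrm2 and Sstr1 joined them. The sign of 8 receptor genes turned with the correction, namely of Htr5a, Htr6, Adra2a, Chrnb2, Sstr4, Cckbr, Adora1 and Crhr1.

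**Figure D5:**
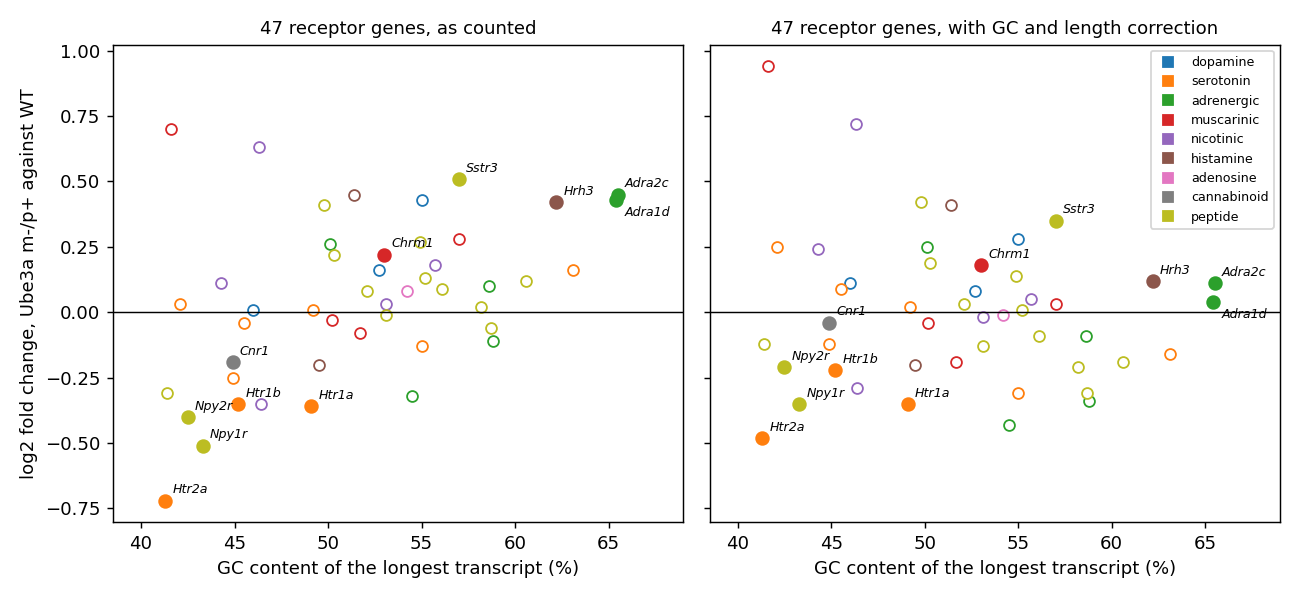
Log2 fold change of the 47 receptor genes tested against the GC content of the longest transcript, as counted (left) and with the GC and length correction (right), coloured by ligand class, with the 11 genes of unadjusted p below 0.05 filled and named. The upward trend on the left (Spearman rho 0.445) is absent on the right (rho -0.0227), where Adra2c falls from 0.45 to 0.11 and Htr1a remains at -0.35.

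The genes that make, load and remove the ligands were taken from a list of 45, of which 30 were tested. No gene of it was differentially expressed in edgeR, 6 (20%) had an unadjusted p below 0.05, below the 24.6% of all genes, 2 higher and 4 lower, and DESeq2 called 1, Cck. Cck, the cholecystokinin gene of interneurons and pyramidal cells, held 267, 193 and 182 CPM in WT and 280, 257 and 309 CPM in Ube3a m-/p+ mice (log2 fold change 0.42, SE 0.13, adjusted p = 0.0851). Tac2, encoding neurokinin B, had 0.85 (SE 0.31, adjusted p = 0.116). Lower were Tac1, the substance P gene, at 6.60, 8.18 and 6.31 CPM against 2.93, 4.77 and 3.61 CPM (log2 fold change -0.87, SE 0.24, adjusted p = 0.0592), Adk, the adenosine kinase gene, at -0.37 (SE 0.11, adjusted p = 0.0681), and the monoamine oxidase gene Maob at -0.34 (SE 0.13, adjusted p = 0.121). After the correction Cck had 0.13, Tac2 0.64, Tac1 -0.73, Adk -0.05 and Maob -0.24.

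Downstream of the receptors, 49 of 51 listed genes for G protein subunits, adenylyl cyclases, phospholipases, potassium channels, kinases, arrestins, RGS proteins and phosphodiesterases were tested. Of these, 12 (24.5%) had an unadjusted p below 0.05, 5 higher and 7 lower, at the background of 24.6%. Gng2, a G protein γ subunit gene, was the 1 differentially expressed, with 332, 349 and 371 CPM in WT and 294, 240 and 262 CPM in Ube3a m-/p+ mice. Its log2 fold change of -0.39 (SE 0.09, adjusted p = 0.0406) was -0.24 (SE 0.07, adjusted p = 0.0872) with the GC correction, and without WT mouse 2, WT mouse 3, Ube3a m-/p+ mouse 2 or Ube3a m-/p+ mouse 3 its adjusted p was 0.137 to 0.272. With the correction 9 genes of the list (18.4%) had an unadjusted p below 0.05, against 14.2% of all genes. The β subunit gene Gnb2, the potassium channel gene Kcnj9 and the cyclase gene Adcy3 had log2 fold changes of 0.37, 0.28 and 0.23 (adjusted p = 0.0688, 0.105 and 0.135), which were 0.10, 0.10 and 0.08 after the correction. Plcb1, the phospholipase gene that Gq drives in the hippocampus, had -0.32 (adjusted p = 0.0746, or -0.15 after the correction), and the cAMP phosphodiesterase gene Pde4d had -0.28 before and after the correction (adjusted p = 0.106 before). Of 43 further genes for receptors and receptor-activity modifying proteins of these and other families, 20 were tested and 3 (15%) had an unadjusted p below 0.05, against 24.6% of all genes. They were the PACAP receptor gene Adcyap1r1 (0.18, adjusted p = 0.174) and Ramp1 (0.25, adjusted p = 0.184) higher and the CGRP receptor gene Calcrl (-0.63, adjusted p = 0.105) lower, and their GC-corrected log2 fold changes were 0.14, 0.15 and -0.32.

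Markers of the cell types that the tissue could hold were summed in each library. The summed CPM was 1126 to 1249 in WT and 1176 to 1331 in Ube3a m-/p+ mice for 10 pyramidal markers, 572 to 615 and 538 to 583 for 8 dentate granule markers, and 710 to 753 and 640 to 680 for 10 interneuron markers. The interneuron sums did not overlap, while the other 2 ranges did. Of the 10 interneuron markers, 5 were fitted higher and 5 lower. Between the genotypes 2 did not overlap in each direction (40% together, against 25% of all genes). In edgeR 4 (40%, against 24.6% of all genes) had an unadjusted p below 0.05, 3 of them lower. In the GC-corrected fit 3 were fitted higher and 7 lower. There 4 (40%, against 14.2% of all genes) had an unadjusted p below 0.05, all lower. The sums for 8 endothelial and pericyte markers, 329 to 350 and 278 to 315, and for 6 oligodendrocyte markers, 7954 to 8070 and 6641 to 7568, were also lower in all mutant mice than in any WT mouse, as were those for 6 microglial markers, 255 to 266 and 242 to 244. Those for 8 meningeal markers were 55.8 to 80.9 and 67.7 to 127, and all 8 were fitted higher, with Col1a1 differentially expressed (log2 fold change 0.73, adjusted p = 0.0416 in edgeR). The pericyte marker Rgs5 (-0.51, adjusted p = 0.0387) and the thalamic marker Rora (-0.62, adjusted p = 0.0387) were also differentially expressed. In the GC-corrected fit these 3 genes had adjusted p-values of 0.0746, 0.0746 and 0.163. The other members of these lists did not all go the same way. Of the 8 endothelial and pericyte markers 4 were fitted higher and 4 lower, and of the 8 thalamic markers 2 higher and 6 lower. In each of these lists 1 marker was higher and 1 lower at an unadjusted p below 0.05 in edgeR (25%, against 24.6% of all genes). Sums of 8 thalamic markers were 172 to 184 and 159 to 179, and of 6 astrocyte markers 2124 to 2158 and 2087 to 2160. The part of these shifts in the values of Cnr1, Npy1r, Npy2r and the other receptors that interneurons carry was not tested.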

How the data were processed

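RNA from the hippocampus of 6 mice, 3 per genotype, was sequenced, and the authors deposited raw counts per gene symbol for each library, without normalization or pooling. The submitters' processing notes name STAR 2.7.4a, HTSeq and mm10. The annotation and strand setting are not given in the sources used here. The 5 summary lines of each library were left out, of which reads on no gene made up 54.1% to 55% of the reads listed. Groups and mouse numbers came from the sample titles. Nothing says that the libraries of 1 genotype came from separate litters, so p-values measure the spread between these mice. No 2 libraries agreed within sampling noise (chi-square per degree of freedom 3.92 to 22.3).

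The analysis ran in R 4.3.3. After edgeR's filterByExpr (edgeR 4.0.16), the genes left were scaled by TMM and tested by the quasi-likelihood F test, two-sided and robust, with genotype as the only factor and Benjamini-Hochberg adjustment over all 14445 genes kept. Calls needed an adjusted p under 0.05 together with a change of more than 1.2-fold. The biological coefficient of variation was 0.102. CPM were computed on total gene counts. The GC-corrected fit added offsets from spline terms (5 degrees of freedom a term) in GC content and in length, taken per library from the longest transcript of a gene in GENCODE M21 on GRCm38, for 14201 genes (98.3%). Floors of 3 counts cover counting error only. The main edgeR fit, the fit with mouse number as a block (the replicate block), the GC-corrected fit and DESeq2 were tested on simulated counts. The simulation held no GC dependence, so it did not test the correction where GC content runs with genotype. The other steps were not simulated. The receptor genes and the other lists were chosen with earlier results of these data known. All 56 receptor genes could be named, with full values for those called, those without overlap at an unadjusted p below 0.05, the 10 highest per kb, Htr2c, Drd1 and Drd2. From the other lists only called genes and at most the 3 smallest p in each direction are named, and Ppp1r1b and Adora2a stand as markers beside Drd1 and Drd2. Another striatal marker of the list is not reported here. G protein coupling was assigned from textbook knowledge. The sequences of 8 receptor promoters and the proteins were not used here.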

Additional observations from a re-analysis of the deposited data

How the results depend on the processing

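The count of receptor genes detected stayed within 1.5 times 47 under every alternative run (42 to 47). The count of 11 receptor genes with an unadjusted p below 0.05 stayed within the same limit of itself (8 to 13), while that of all genes moved more. With the GC correction and the replicate block it was 8 of 47 receptor genes, against 1617 of all 14201 genes. Without WT mouse 1 it was 13 of 49, against 4761 of 14646. The count of receptor genes called, 1, was 5 with DESeq2, 2 with size factors by relative log expression, 0 with library size only (where 11 had an unadjusted p below 0.05), 6 without a filter, 2 with at least 10 counts in every library, 0 with the GC correction and 0 to 8 leaving out 1 mouse. For all genes the 290 calls became 961 with DESeq2, 399 by relative log expression, 295 with library size only and 1176 without a filter. They were 392 with at least 10 counts in every library, 92 with the GC correction and 0 to 2582 leaving out 1 mouse. The receptor median log2 fold change, 0.0839, was 0.0292 with at least 10 counts in every library, -0.0131 with the GC correction and 0.029 to 0.122 leaving out 1 mouse. Ube3a kept its direction, at -0.20 with the GC correction and -0.73 to -0.48 leaving out 1 mouse.

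Deviations from the genotype means correlated at -0.285, -0.177 and -0.311 across genes for same-numbered mice. For the 6 pairs of unlike numbers they correlated at -0.00932 to 0.288, so that no mouse correlated best with its own number. These deviations cannot decide whether the numbers pair the samples. In GC dependence WT mouse 1 lay above, and Ube3a m-/p+ mouse 1 below, the other mice of its genotype. Their deviations thus ran in opposite directions, however alike these mice were. A shared preparation of same-numbered mice was not tested. By counts, the mice numbered 1 were the closest of the 15 pairs of libraries (chi-square per degree of freedom 3.92, against 4.12 to 22.3), and no pair agreed within sampling noise. With the replicate block edgeR called 0 of all genes and 0 receptor genes, and Ube3a was at -0.57 (adjusted p = 0.216). An unadjusted p below 0.05 was then reached by 2422 of all 14445 genes (16.8%, against 24.6% without the block). It was reached by 8 of 47 receptor genes (17%, against 23.4%) and 6 of 49 effector genes (12.2%, against 24.5%). With the GC correction and the replicate block together there were 13 calls, 0 of them receptor genes. The receptor median was then -0.0249 and the log2 fold change of Ube3a -0.19. In that fit 1617 of all 14201 genes had an unadjusted p below 0.05. So did 8 of 47 receptor genes, 6 of 49 effector genes and 1 of 20 other receptor genes.

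Leaving out 1 mouse changed the counts at an unadjusted p below 0.05 in the other lists and over all genes. They ran from 4 of 32 to 10 of 33 supply genes, from 4 to 22 of 49 effector genes and from 0 to 5 of 21 other receptor genes. Over all genes they ran from 2075 of 14627 (without WT mouse 2) to 4761 of 14646 (without WT mouse 1). Signs turned for receptor genes near no change. Drd1 was at -0.00 with library size only and -0.08 to 0.11 leaving out 1 mouse, Htr2c at -0.25 to 0.49 and Chrm3 at -0.09 to 0.05. With the GC correction Sstr4 was at -0.19 and Adora1 at -0.01, and with the block as well at -0.19 and -0.02. The causes were not tested. Depth limits the 9 receptor genes that were not tested and those of few counts, such as Chrm2.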
